A study of Mus musculus with 23 samples.

Results

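Imprinted genes are expressed mainly or only from the copy inherited from 1 parent, and 36 of them, from 17 imprinted loci, were followed here through 23 single neurons of the mouse arcuate hypothalamus. The genes were chosen by symbol as a list, and all 36 were found, each as 1 row among the 23373 genes of the deposited table. By common knowledge of the mouse loci, 22 of the 36 are usually read from the paternal copy and 14 from the maternal copy. The data hold no allele information, so every value is the total of both copies.

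Imprinting is set in the germ line by DNA methylation of control regions, which then keep 1 parental copy of a cluster of neighbouring genes silent. Many imprinted genes are strongly transcribed in the brain, and several act in the hypothalamus: loss of the paternal genes of the Prader-Willi locus causes overeating and growth hormone deficiency in people, and loss of the maternal Ube3a copy in neurons causes Angelman syndrome. Some of the genes are imprinted only in certain tissues or are biased towards 1 copy without silencing of the other.

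The cells came from young adult male mice of mixed background that carried Cre at the gene for the vesicular glutamate transporter vGLUT2 (vGLUT2-IRES-Cre) and the Cre-dependent reporter loxSTOPlox-L10-GFP, a ribosomal protein fused to GFP. All 23 cells were GFP-positive and hand-picked, so all share both alleles, and any neuron that had expressed the transporter earlier in development could be labelled. There was no treatment and no second genotype. The series gives 2 mice without tying cells to them, so the cells are 1 group with no biological replicates, and no test between cells was made. Cells are numbered 1 to 23 in record order. The titles of 15 cells begin with JCb5.2 (cells 1 to 15) and those of 8 cells with JCb6 (cells 16 to 23), and the labels do not say what the prefixes mean.

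Levels are FPKM, the fragments of a gene divided by its length and by the size of the library, and a gene was counted in a cell at or above 1 FPKM. Between 4049 (cell 17) and 8025 (cell 13) genes per cell reached that level, and the spacing of low values placed relative sequencing depth within a 4.17-fold range. Of 8 pan-neuronal marker genes, 6 reached 1 FPKM in all 23 cells, and among the glial, vascular and blood lists no gene did so. The haemoglobin gene Hba-a2 came close, in 22 cells, with a median of 105 FPKM and a highest value of 1594 FPKM (cell 19). The summed level of 4 red blood cell genes ran from 3.45 to 2395 FPKM (median 112 FPKM). In Y-linked genes the libraries of cells 20 and 23 went against the label of male mice. The highest of these genes were at 0.127 and 0.143 FPKM, against at least 6.79 FPKM in each of the other cells. The X-linked RNA Xist did not set the same 2 cells apart, at 0.596 and 2.69 FPKM, against 0 to 5.26 FPKM in the others. The origin of these values was not tested. Cell 12 differed from the other libraries by 165 FPKM of the astrocyte filament gene Gfap and 258 FPKM of Vim, and cell 17 by its low number of genes.

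Arcuate neurons carried most of the 36 imprinted genes. At least 1 cell reached 1 FPKM for 33 of the 36 (91.7%, against 63.6% of all genes), and 27 of the 36 (75%) did so in 12 or more cells, against 27.7% of all genes. In every one of the 23 cells 13 of the 36 (36.1%) were present, against 7.20% of all genes. A median of 100 FPKM or more was seen for 7 of the 36 (19.4%), against 3.27% of all genes. A single neuron held between 19 (cell 17) and 29 of the genes, and together they made up 0.539% to 1.38% of its FPKM (median 1.04%). The list had been put together with earlier results of these cells known.

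**Figure D1:**
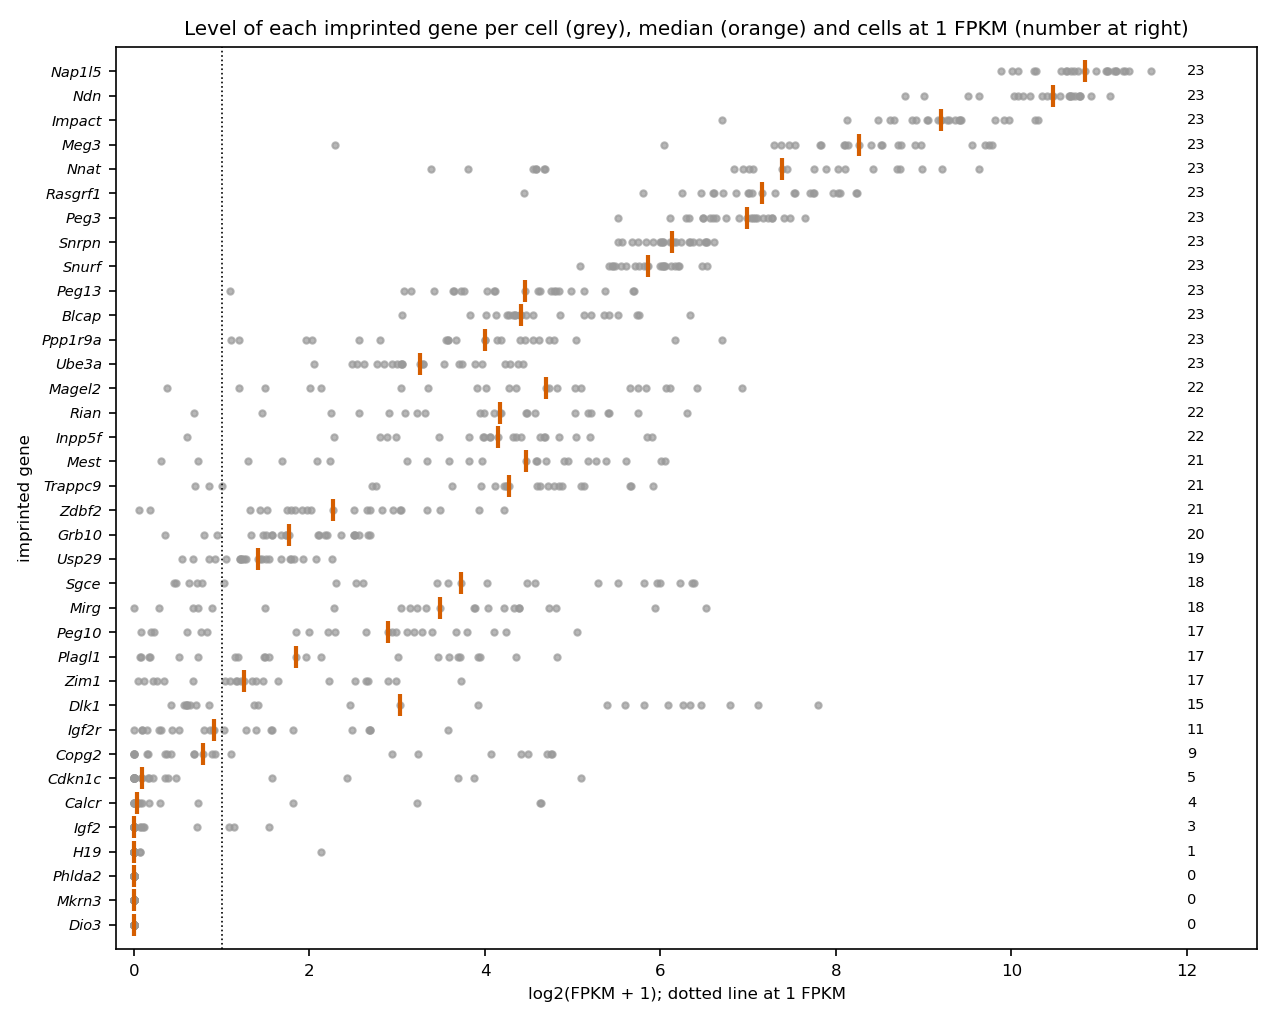
Level of each of the 36 imprinted genes, as log2(FPKM + 1), in each of the 23 cells (grey points), with the median over cells (orange bar) and the number of cells at or above 1 FPKM at the right. Genes are ordered by that number and then by median; 13 genes at the top reach all 23 cells and 3 genes at the bottom are listed at 0 in every cell.

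The highest level belonged to Nap1l5, a single-exon gene of the nucleosome assembly protein family on chromosome 6 (chr6:58905233-58907126, mm10). Its median was 1829.5 FPKM with a range from 943 (cell 7) to 3073 FPKM (cell 21), and its median ranked 23 among all 23373 genes. Ndn, described below with its locus, came next, and Impact, a regulator of the amino acid response of translation, was the third at a median of 588 FPKM (103 to 1264). Rasgrf1, a Ras exchange factor of neurons that is known for effects on growth hormone, had a median of 142 FPKM, with a lowest value of 20.8 FPKM (cell 1) and a highest of 302 FPKM (cell 10). Nnat, which encodes the small endoplasmic reticulum protein neuronatin, had a median of 167 FPKM and the widest spread on the log2 scale among the 13 genes present in all cells, with 9.46 FPKM in cell 17 and 793 FPKM in cell 19. The Nnat locus lies whole (2410 bp) within Blcap on the opposite strand, and Blcap had a median of 20.2 FPKM (7.34 to 79.8). Because the counting is not stated to use strand, reads of the 2 genes over the shared stretch cannot be told apart.

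The Prader-Willi and Angelman locus on chromosome 7 was transcribed at 5 of its 6 genes. Ndn (chr7:62348277-62349927), which encodes the MAGE-family protein necdin, had a median of 1418 FPKM and ranked 31 among all genes. Its lowest value was 439 FPKM (cell 17) and its highest 2229 FPKM (cell 14), a 5.07-fold range. Magel2 (chr7:62376979-62381640), a MAGE-family partner of a ubiquitin ligase that acts in retromer-dependent protein recycling, reached 1 FPKM in 22 of 23 cells (95.7%, exact 95% interval 78.1% to 99.9%). Its median was 24.9 FPKM and its range was far wider than that of Ndn, between 0.302 FPKM (cell 2) and 121 FPKM (cell 7). Mkrn3, which encodes a zinc finger protein whose loss in people leads to early puberty, was listed at 0 in all 23 cells; 0 of 23 cells leaves an exact 95% interval of up to 14.8%.

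Snrpn and Snurf, which share a transcript that encodes a spliceosome protein and a short upstream protein, were the most even of the 13 genes present in all cells. Snrpn had a median of 69.4 FPKM with a range from 44.8 to 96.9 FPKM, and Snurf 57.2 FPKM with a range from 32.8 to 91.1 FPKM. On the log2 scale the standard deviation over cells was 0.31 for Snrpn and 0.36 for Snurf, against a median of 0.98 over the 1682 genes present in every cell. Their loci overlap by 22655 bp on the same strand, and the ratio of Snurf to Snrpn stayed between 0.694 and 0.99. How the authors' counting divided the shared reads is not given in the sources used here, so the 2 values are not separate measurements. Ube3a, the ubiquitin ligase of Angelman syndrome, reached 1 FPKM in all 23 cells at a median of 8.58 FPKM (3.15 to 20.7).

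The promoter sequences of this locus and of 2 other loci are shown because their genes set the ends of the range in evenness or are neighbours compared below. Each line gives the 250 bases before the RefSeq start (GRCm38.p6), read 5′ to 3′ on the strand of the gene, and capitals mark CG, the dinucleotide at which imprinted control regions are methylated. They lie at chr7:60005200-60005449 (minus strand), chr7:62348027-62348276 (plus), chr7:62376729-62376978 (plus), chr7:6730420-6730669 (minus) and chr12:109452573-109452822 (plus).
Snurf: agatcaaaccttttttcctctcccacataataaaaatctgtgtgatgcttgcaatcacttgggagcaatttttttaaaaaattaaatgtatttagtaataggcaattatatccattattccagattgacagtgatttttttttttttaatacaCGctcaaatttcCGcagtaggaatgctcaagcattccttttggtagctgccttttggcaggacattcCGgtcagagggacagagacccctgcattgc
Ndn: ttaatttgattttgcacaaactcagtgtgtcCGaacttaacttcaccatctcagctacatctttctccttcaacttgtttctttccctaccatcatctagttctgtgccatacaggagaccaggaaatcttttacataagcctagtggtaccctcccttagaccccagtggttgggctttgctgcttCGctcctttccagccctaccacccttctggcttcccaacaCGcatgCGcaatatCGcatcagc
Magel2: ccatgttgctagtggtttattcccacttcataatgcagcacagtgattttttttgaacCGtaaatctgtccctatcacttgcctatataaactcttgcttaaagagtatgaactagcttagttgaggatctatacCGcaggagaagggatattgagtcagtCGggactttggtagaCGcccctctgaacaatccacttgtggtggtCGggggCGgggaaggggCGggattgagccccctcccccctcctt
Peg3: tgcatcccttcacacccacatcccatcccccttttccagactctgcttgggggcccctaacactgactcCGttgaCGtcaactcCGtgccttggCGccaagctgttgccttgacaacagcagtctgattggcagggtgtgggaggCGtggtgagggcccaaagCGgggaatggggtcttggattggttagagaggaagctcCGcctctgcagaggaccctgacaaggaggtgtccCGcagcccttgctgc
Dlk1: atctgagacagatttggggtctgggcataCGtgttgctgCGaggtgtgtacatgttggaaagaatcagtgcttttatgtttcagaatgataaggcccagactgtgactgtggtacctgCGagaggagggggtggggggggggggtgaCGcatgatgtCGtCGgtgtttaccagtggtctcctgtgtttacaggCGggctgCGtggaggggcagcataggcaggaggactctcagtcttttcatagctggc
The Snurf window, which RefSeq also lists as a start of Snrpn, held 3 CG in these 250 bases, Ndn 5, Magel2 7, Peg3 8 and Dlk1 8. Over the full windows of 300 bases (250 before and 50 after the start, CG being its own reverse complement), 29 of the imprinted genes were matched to RefSeq windows, with a median of 17 CG and a range from 0 for Rian to 48 for Ppp1r9a. The median of all 32851 windows was 7 CG and 94.6% held at least 1. More than 7 CG were found in 25 of the 29, against 48.6% of all windows. These counts describe reference sequence and say nothing about methylation in the cells.

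In the Dlk1-Dio3 interval on chromosome 12, the maternally expressed non-coding RNAs were present in most cells and the protein-coding genes differed. Meg3 (chr12:109540996-109571729) had a median of 307 FPKM and reached 1 FPKM in all 23 cells. Its values ran from 65.0 FPKM (cell 10) to 879 FPKM (cell 6), apart from cell 2 at 3.91 FPKM. In that cell Rian, the next RNA along the same strand, was at 52.8 FPKM, and Mirg, the one after it, was listed at 0. Rian, which hosts small nucleolar RNAs, had a median of 16.97 FPKM (22 cells), and Mirg, which hosts microRNAs, 10.2 FPKM (18 cells; highest 90.9 FPKM in cell 19). Dio3, the deiodinase that inactivates thyroid hormone, was listed at 0 in all 23 cells.

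Dlk1 (chr12:109452823-109463336), which encodes a transmembrane protein with EGF-like repeats related to Notch ligands, varied most of all 36 genes, with a standard deviation of 2.72 on the log2 scale. It reached 1 FPKM in 15 cells (65.2%, exact 95% interval 42.7% to 83.6%). The highest value was 220 FPKM in cell 7 and the lowest 0.339 FPKM in cell 18. No cell was listed at 0. Of the 23 cells, 13 were at or above 4.49 FPKM and 10 at or below 1.67 FPKM. The widest gap on the log2 scale lay higher, between 14.1 FPKM (cell 11) and 41.0 FPKM (cell 4). The origin of the low values was not tested.

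Among the other loci, the Peg3 cluster combined a strong and 2 weak genes. Peg3, a zinc finger protein with roles in maternal behaviour and growth, had a median of 125 FPKM (44.9 to 199.6) in all 23 cells. Usp29, a deubiquitinase gene that starts next to it on the opposite strand with 263 bases of shared promoter window, had a median of 1.67 FPKM and reached 1 FPKM in 19 cells. Zim1, a zinc finger gene, had a median of 1.39 FPKM (17 cells). In the Peg10-Sgce cluster Ppp1r9a (chr6:4903320-5165661), which encodes neurabin, an actin-binding scaffold of synapses, was in all 23 cells at a median of 15.0 FPKM. Sgce, a sarcoglycan whose loss causes myoclonus dystonia, reached 1 FPKM in 18 cells with values from 0.367 to 82.3 FPKM. Peg10, derived from a retrotransposon, reached it in 17 cells (median 6.41 FPKM, highest 32.2 FPKM in cell 9).

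The genes best known from fetal growth were near the floor. Igf2, the fetal insulin-like growth factor, reached 1 FPKM in 3 cells, at 1.21 FPKM (cell 2), 1.91 FPKM (cell 6) and 1.12 FPKM (cell 19). H19, the non-coding RNA beside it, did so in cell 3 alone, at 3.37 FPKM. The summed level of 8 endothelial, mural and meningeal markers was 0.0491, 0.461 and 13.6 FPKM in those 3 Igf2 cells and 9.73 FPKM in the H19 cell, against a median of 0.537 FPKM over all cells. Of these 8 markers 5 reached 1 FPKM in any cell, while Cldn5 and Dcn were listed at 0 in every cell. The summed level of 4 red blood cell genes was 440, 6.65 and 2395 FPKM in the same 3 Igf2 cells. It was 622 FPKM in the H19 cell, against a median of 112 FPKM over all cells. The part of either marker list in the Igf2 and H19 values was not tested. Phlda2, a placental growth gene, was listed at 0 in all 23 cells. Cdkn1c, an inhibitor of cyclin-dependent kinases, reached 1 FPKM in 5 cells, led by 33.1 FPKM in cell 18 and 13.7 FPKM in cell 1. Igf2r, the receptor that clears Igf2, reached it in 11 cells (highest 11.0 FPKM, cell 16), and Grb10, an adaptor that dampens insulin signalling, in 20 cells at a median of 2.40 FPKM.

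The remaining genes lay in between. Mest, a hydrolase-like gene of growth and maternal care, had a median of 21.2 FPKM (21 cells), and its neighbour Copg2, a coat protein subunit of vesicle traffic, reached 1 FPKM in 9 cells (highest 26.2 FPKM). Peg13, a non-coding RNA that lies within Trappc9 on the same strand (4725 bp shared), had a median of 20.9 FPKM in 23 cells, and Trappc9, a subunit of a vesicle tethering complex, 18.3 FPKM in 21 cells. Inpp5f, a phosphoinositide phosphatase, had a median of 16.7 FPKM (22 cells), Zdbf2, a gene that affects feeding in newborn mice, 3.81 FPKM (21 cells), and Plagl1, a zinc finger transcription factor, 2.61 FPKM (17 cells). Of the 22 paternally expressed genes 19 reached 1 FPKM in 12 or more cells, with a median of medians of 18.8 FPKM. Of the 14 maternally expressed genes 8 did so, with a median of medians of 4.98 FPKM.

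To describe the genes by peptide type, cells were put in classes by their peptide transcripts, in this order: Kiss1 at 500 FPKM or more (5 cells), Cartpt at 10000 or more (4 cells), Pomc at 1000 or more (4 cells), Sst or Npy at 1000 or more (4 cells) and the 6 remaining cells. These peptides mark neurons of reproduction (Kiss1) and feeding (Cartpt, Pomc, Npy), and Sst encodes somatostatin. Classes are ranges of a level and not cell types; all 4 cells of the Cartpt-highest class also had over 1000 FPKM of Pomc. Cell 3 with 922 FPKM of Pomc and cell 2 with 903 FPKM of Sst fell just below a threshold and are among the remaining cells. Kiss1-high cells came 4 of 5 from the titles with JCb6, and the Cartpt-highest and Sst- or Npy-high cells all had JCb5.2. A gene was called higher or lower in a class when the mean log2(FPKM + 1) differed by 1 or more from that of all other cells; 32 of the 36 genes reached 1 FPKM in at least 3 cells and were compared.

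**Figure D2:**
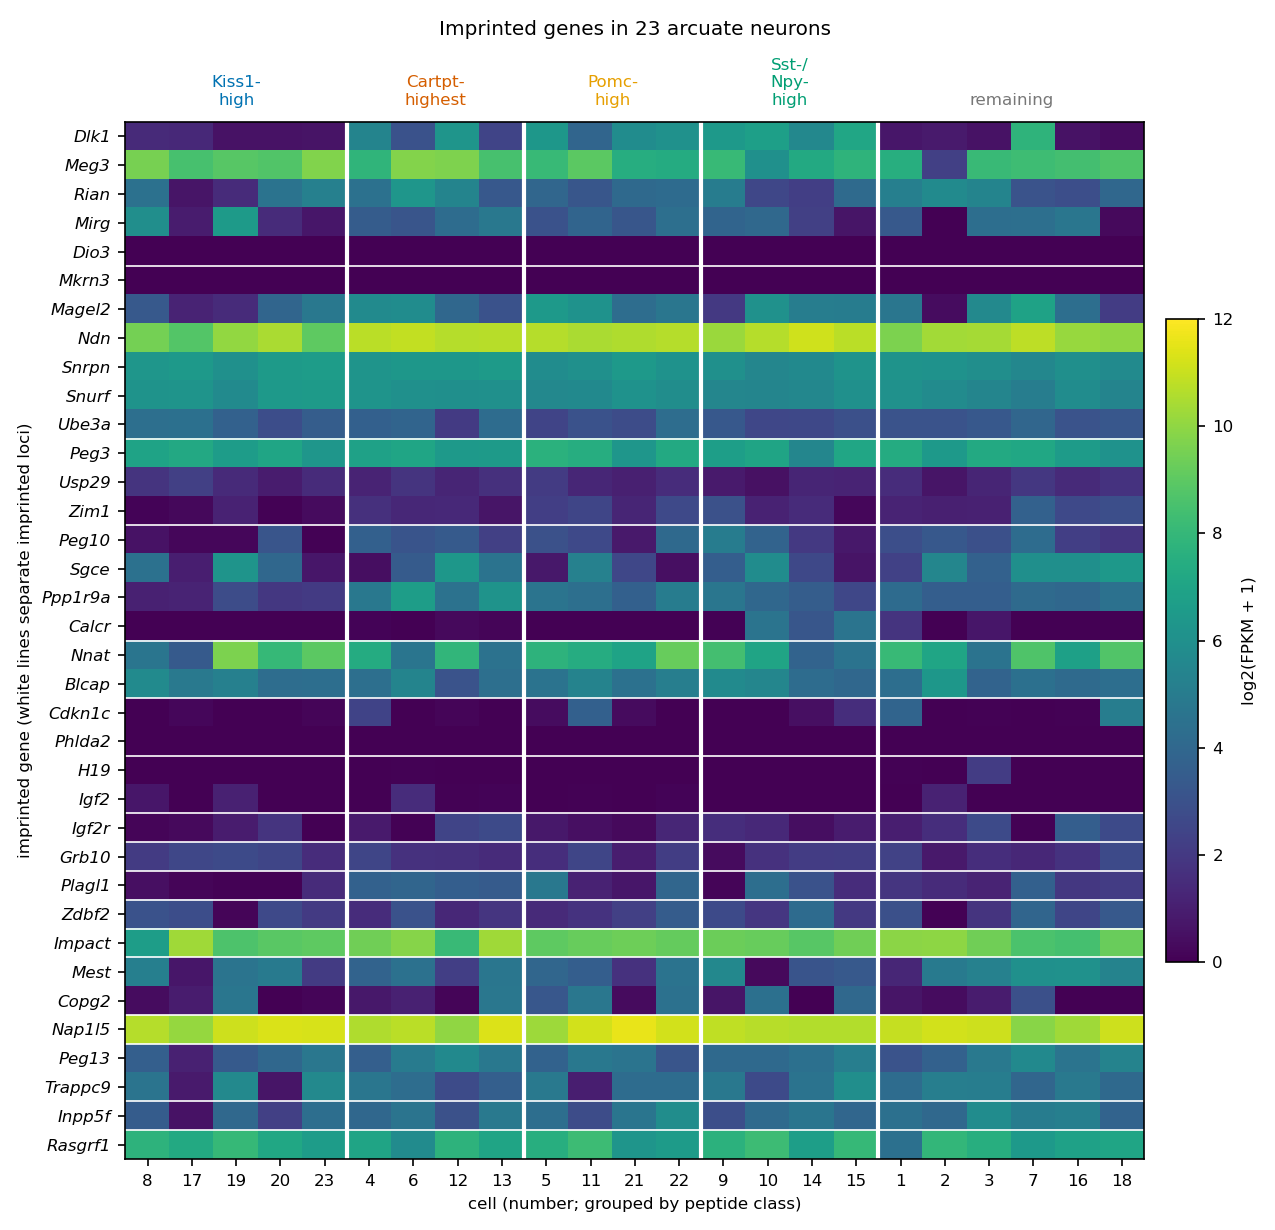
Heat map of log2(FPKM + 1) for the 36 imprinted genes (rows, in the order of their loci) in the 23 cells (columns, grouped by peptide class). Nap1l5 and Ndn are bright in every cell, Snrpn and Snurf are even, Dlk1 is dark in all 5 Kiss1-high cells and in 5 of the 6 remaining cells, and Dio3, Mkrn3 and Phlda2 are dark throughout.

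Over all 23 cells Dlk1 differed between the peptide classes, with exceptions given below. In the Kiss1-high cells it was at 1.67 (cell 8), 1.58 (cell 17), 0.523 (cell 19), 0.519 (cell 20) and 0.562 FPKM (cell 23). In the Cartpt-highest cells it was at 41.0 (cell 4), 7.16 (cell 6), 75.6 (cell 12) and 4.49 FPKM (cell 13). In the Pomc-high cells it was at 79.7 (cell 5), 14.1 (cell 11), 55.4 (cell 21) and 67.1 FPKM (cell 22). The Kiss1-high cells were thus all below every cell of both of these classes.

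In the Sst- or Npy-high cells Dlk1 was at 87.1 (cell 9), 110 (cell 10), 47.3 (cell 14) and 137 FPKM (cell 15). In 5 of the 6 remaining cells it was between 0.339 and 0.814 FPKM, and in cell 7 it was at 220 FPKM, the highest of all. The 12 cells of the Cartpt-highest, Pomc-high and Sst- or Npy-high classes lay between 4.49 and 137 FPKM (median 61.2 FPKM) and did not overlap with the 5 Kiss1-high cells; the difference of mean log2 values was 4.51. Pooling these 12 cells was chosen after the Dlk1 values were seen. In that comparison 0.295% of 10857 genes had no overlap, and Dlk1 was the 1 of 31 imprinted genes compared that had none. Cells 2 and 3, which missed the Sst and Pomc thresholds narrowly, had 0.814 and 0.503 FPKM of Dlk1 and would overlap with the Kiss1-high cells. The widest gap in the Dlk1 values divided 2 of these classes. At 41.0 FPKM or more were 2 of the 4 Cartpt-highest, 3 of the 4 Pomc-high and all 4 Sst- or Npy-high cells. So was 1 of the 6 remaining cells, and 0 of the 5 Kiss1-high cells.

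Within the title prefixes the Dlk1 differences were uneven. Among the 8 cells with JCb6, both Pomc-high cells were at 55.4 and 67.1 FPKM and the other 6 cells between 0.339 and 1.58 FPKM. Among the 15 cells with JCb5.2, the 4 Sst- or Npy-high cells had a mean log2 level 2.96 above that of the other 11, and the single Kiss1-high cell was at 1.67 FPKM. In the same 15 cells the difference was 0.94 for the 2 Pomc-high cells, below the size called, and -0.04 for the 4 Cartpt-highest cells. Meg3, the reciprocally imprinted neighbour, did not follow Dlk1. In the Kiss1-high cells it was 364.7 to 857 FPKM (median 477), inside the range of all other cells (3.91 to 879 FPKM, median 273). Spearman's rho between Dlk1 and Meg3 was -0.35 over the 23 cells, -0.09 within JCb5.2 and -0.45 within JCb6.

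**Figure D3:**
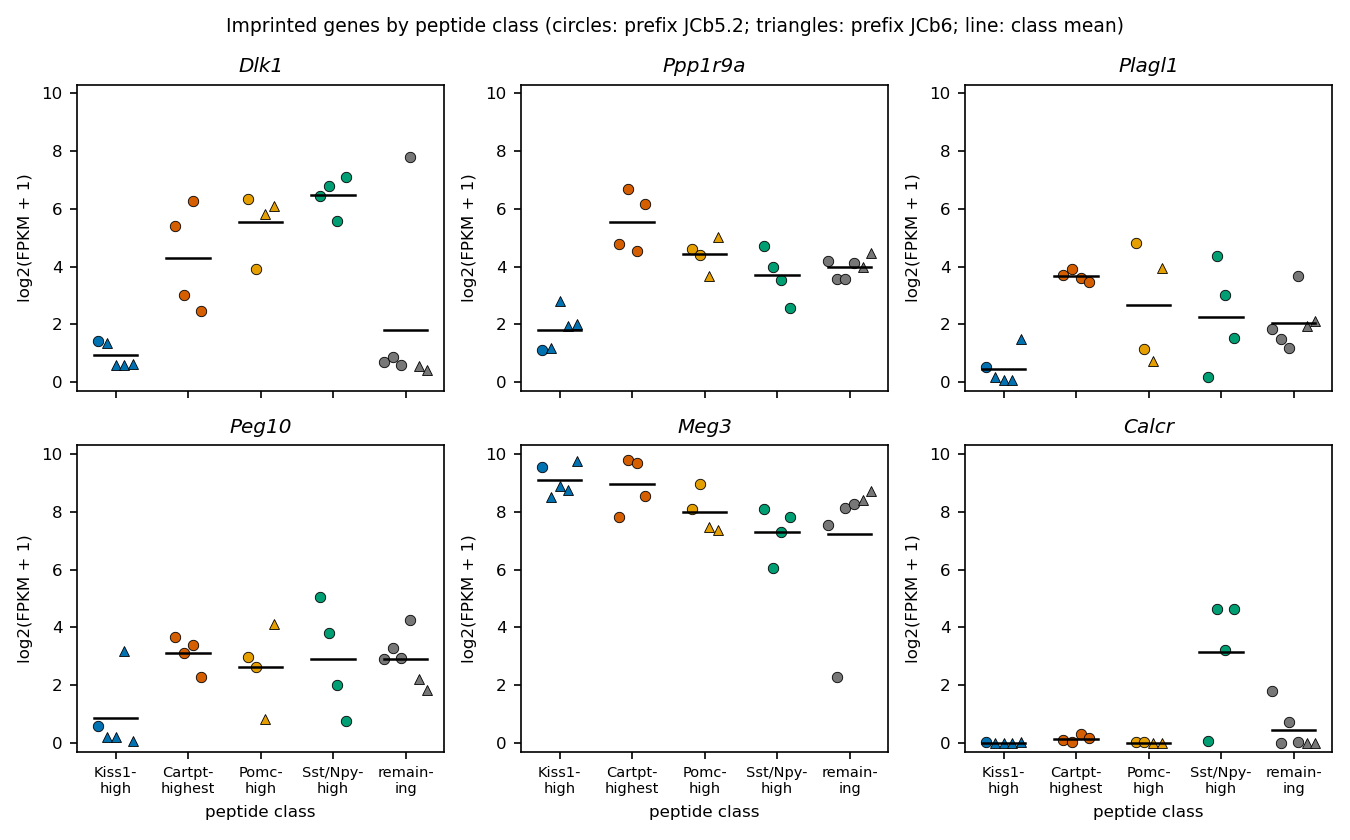
Level of 6 imprinted genes as log2(FPKM + 1) in each cell by peptide class, with circles for titles with JCb5.2, triangles for JCb6 and a line at the class mean. Dlk1 is low in the Kiss1-high class and in the remaining cells except cell 7, Ppp1r9a is lowest in the Kiss1-high and highest in the Cartpt-highest class, and Calcr is above 8 FPKM in 3 Sst- or Npy-high cells only.

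In the Kiss1-high class 8 of the 32 genes (25.0%) were lower, against 21.3% of all genes compared, so the share was near the background. The differences of mean log2 levels, class minus all other cells, were -3.30 for Dlk1, -2.55 for Ppp1r9a, -2.13 for Plagl1, -2.03 for Peg10, -1.63 for Magel2, -1.40 for Zim1, -1.39 for Inpp5f and -1.09 for Peg13. Meg3 was the 1 gene called higher (difference 1.29; 3.12% of the genes against 6.00% of all). No gene of the 32 was free of overlap between the class and the other cells, which 0.0857% of all genes were. The median difference was -0.48 over the imprinted genes and -0.33 over all genes. The class also had fewer genes at 1 FPKM per cell, 4049 to 6698 against 6393 to 8025 in the other cells, and the part of this in the differences was not tested. Without cell 17, 6 genes were lower, against 16.8% of all genes, and Inpp5f (-0.81) and Peg13 (-0.52) were no longer called. Without cells 20 and 23 the differences were -2.57 for Magel2 and -1.75 for Peg13, and within JCb6 that of Meg3 was 0.99, just below the size called.

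Ppp1r9a came close to separating the Kiss1-high cells. It was at 1.16 (cell 8), 1.29 (cell 17), 5.96 (cell 19), 2.89 (cell 20) and 3.09 FPKM (cell 23), against 4.92 to 103 FPKM (median 18.7) in the other 18 cells. The overlap came from cell 19 and cell 15 alone. Among the 8 cells with JCb6 the 4 Kiss1-high cells (1.29 to 5.96 FPKM) were all below the other 4 (11.7 to 31.8 FPKM). Zim1 did not overlap there either (up to 1.25 against at least 1.39 FPKM), so 2 of 28 imprinted genes had no overlap in that comparison, against 4.36% of all genes.

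In the Cartpt-highest class 4 of 32 genes (12.5%) were higher, against 13.8% of all genes, and 0 were lower, against 7.85%. Ppp1r9a was at 26.5 (cell 4), 103 (cell 6), 22.3 (cell 12) and 70.7 FPKM (cell 13), against 1.16 to 31.8 FPKM elsewhere, a difference of 2.09 on the log2 scale. Plagl1 was at 12.1, 14.1, 11.1 and 10.0 FPKM in the same order of cells, against a median of 1.81 FPKM and a range from 0.0493 to 27.4 FPKM elsewhere, a difference of 1.86. Cells 6 and 13 were above every other cell for Ppp1r9a, while for Plagl1 the class was even and lay inside the range of the others. Meg3 and Rian were both higher by 1.07. All 4 genes overlapped with the other cells, as did the other 28, and 0.0857% of all genes did not.

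These 4 cells also had high summed levels of astrocyte and tanycyte markers, mostly Vim, though not all above every other cell. The summed level of 7 astrocyte and tanycyte markers was 60.2 to 424 FPKM in them, 0.470 to 6.25 FPKM in the remaining cells and at most 61.5 FPKM in any other class. The sum came mostly from Vim; Aqp4, Aldh1l1, Slc1a3 and Rax were below 1 FPKM in all 23 cells, Slc1a2 reached it in 4 cells and Gfap in 3. Their part in the Cartpt-highest differences was not tested. Compared only with the other 11 cells with JCb5.2, the differences were 1.87 for Ppp1r9a, 1.51 for Plagl1, 1.496 for Meg3 and 0.78 for Rian. Without cell 12, 2 genes were called higher, and without cell 4 or cell 13, 7 were. The Meg3 and Rian calls rested on single cells: the differences were 0.79 and 0.60 without cell 6, and 0.82 and 0.90 without cell 12.

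In the Pomc-high class 4 of 32 genes (12.5%) were higher, against 12.4% of all genes, and 1 was lower, against 5.95%. The higher genes were Dlk1 (by 2.45), Copg2 (1.78), Magel2 (1.40) and Nnat (1.15), and Sgce was lower (-1.62). Within JCb5.2 the Dlk1 difference was 0.94 and that of Sgce -0.77, neither of the size called, against 5.25 and -2.55 within JCb6. The Nnat call was lost within JCb6 (0.48), without cell 22 (0.69) and without cell 17 (0.97). Without cell 11 the Sgce difference was -2.62, and without cell 21 that of Copg2 was 2.73. Magel2 was at 84.8 (cell 5), 68.1 (cell 11), 18.4 (cell 21) and 25.6 FPKM (cell 22), against a median of 19.4 FPKM and a highest value of 121 FPKM elsewhere, so the class lay in the upper range without leaving it. Copg2 was at 8.43, 26.1, 0.275 and 21.5 FPKM, high in 3 of the 4 cells. All 5 genes overlapped with the other cells, and 0.00857% of all genes did not. The summed level of the 8 endothelial, mural and meningeal markers was 0.200 (cell 5), 0.806 (cell 11), 21.3 (cell 21) and 19.8 FPKM (cell 22) in this class, the last pair being the highest of the 23 cells, against medians of 0.248 to 2.39 FPKM in the other classes. The part of these markers, of which Cldn5 and Dcn were listed at 0 throughout, in the Pomc-high differences was not tested.

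In the Sst- or Npy-high class 2 of 32 genes (6.25%) were higher, against 10.1% of all genes, and 1 was lower, against 9.51%. Beside Dlk1 (by 3.60) the higher gene was Calcr, the calcitonin receptor, a receptor for calcitonin and amylin known in hypothalamic feeding circuits. Calcr was at 0.0449 (cell 9), 23.9 (cell 10), 8.38 (cell 14) and 23.7 FPKM (cell 15), and outside the class it reached 1 FPKM only in cell 1, at 2.51 FPKM. It therefore passed the filter of 1 FPKM in at least 3 cells only through the class in which it was high. The 2 cells with the highest Calcr, 10 and 15, were also the 2 cells with over 1000 FPKM of Npy, at 2539 and 2660 FPKM. Calcr was above 0 in all 15 cells with JCb5.2 and listed at 0 in 5 of the 8 with JCb6, where the highest value was 0.0162 FPKM; the origin of such low values was not tested. Nnat was lower (-1.13), but the call was lost without cell 14 (-0.41), without cell 15 (-0.67), without cells 20 and 23 (-0.96), after rescaling (-0.97) and within JCb5.2 (-0.66), and without cell 9 the difference was -1.95. None of the 32 genes was free of overlap, against 0.0171% of all genes.

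In the 6 remaining cells 2 of 32 genes (6.25%) were higher, against 11.5% of all genes, and 3 (9.38%) were lower, against 5.44%. Sgce (by 1.86) and Mest (by 1.36) were higher, and Dlk1 (-2.29), Copg2 (-1.24) and Meg3 (-1.16) were lower. Within JCb5.2, which holds 4 of these cells, the differences were 0.92 for Sgce, 0.71 for Mest and -0.98 for Copg2, none of the size called, and within JCb6 they were 3.69 for Sgce and 2.62 for Mest. Without cell 1 the Mest difference was 2.06. Without cell 7 the Dlk1 difference was -3.48, and without cell 2, the cell with 3.91 FPKM of Meg3, the Meg3 difference was -0.17. All genes overlapped with the other cells, and 0.00857% of all genes did not.

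Between the title prefixes, 6 of 32 genes (18.8%) were higher in the 15 cells with JCb5.2, against 11.6% of all genes, and 1 was lower, against 4.93%. The higher genes were Dlk1 (by 2.30), Magel2 (1.33), Peg10 (1.33), Plagl1 (1.24), Calcr (1.05) and Ppp1r9a (1.03), and Nnat was lower (-1.28). Calcr reached 1 FPKM in 4 cells with JCb5.2 and 0 with JCb6, so it passed the filter only through JCb5.2. No gene was free of overlap, against 0.146% of all genes. Prefix and peptide class cannot be told apart for these genes, since the classes are divided unevenly between the prefixes; without the Kiss1-high and Cartpt-highest cells 2 genes were higher, Dlk1 and Calcr, and the Ppp1r9a difference was -0.36. That difference was also below the size called without cell 17 (0.75), without cell 23 (0.87) and without both cells 20 and 23 (0.65).

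Neighbours in an imprinted cluster did not generally rise and fall together from cell to cell. Over the 24 pairs of genes within a cluster that were both present in 12 or more cells, 13 had a Spearman rho above 0 and the median rho was 0.04, while over all pairs of the 6482 genes present in as many cells the median was 0.03 and the middle range from the first to the ninth decile was -0.26 to 0.31. The ninth decile, which the top decile of all pairs reaches by definition, was reached by 4 of the 24 pairs, a share above that background. Snrpn and Snurf had a rho of 0.92, Peg10 and Ppp1r9a 0.60, Magel2 and Ndn 0.59, and Peg3 and Usp29 0.32. The first of these pairs shares reads, and the last shares a promoter window. Below the first decile (-0.263) lay Magel2 and Snrpn (-0.373), Dlk1 and Meg3 (-0.354) and Magel2 and Ube3a (-0.264). Within the title prefixes Magel2 and Ndn gave 0.46 (15 cells) and 0.40 (8 cells), Peg10 and Ppp1r9a 0.44 and 0.50, and Peg3 and Usp29 0.49 and 0.05. In the Dlk1-Dio3 interval Meg3 and Rian had a rho of 0.14 and Rian and Mirg -0.23, although all are read from the same strand and usually the same parental copy. All pairs share the libraries and their depth, and these values are descriptions over 23 cells.

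Both large imprinted intervals also hold rows for small RNA hosts and unnamed transcripts. In the Ube3a-Mkrn3 interval (chr7:59228750-62420139) 19 further rows were listed, and 15 reached 1 FPKM in at least 1 cell. B230209E15Rik was present in all 23 cells (median 84.2 FPKM), Ipw, a non-coding RNA of the Prader-Willi locus, in 22 (47.9 FPKM), A230073K19Rik in 22 (6.37 FPKM), A330076H08Rik in 21 (22.1 FPKM), C230091D08Rik in 16 and D7Ertd715e in 12. In the Dlk1-Dio3 interval (chr12:109452823-110281097) 68 further rows were listed, 64 of them shorter than 300 bp. Some cell reached 1 FPKM for 47 of the 68, and 12 or more cells did so for 1, against the same shares of all genes. Rtl1, a retrotransposon-derived gene antisense to a microRNA cluster, reached it in 5 cells (highest 6.13 FPKM), and 6430411K18Rik in 4.

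**Figure D4:**
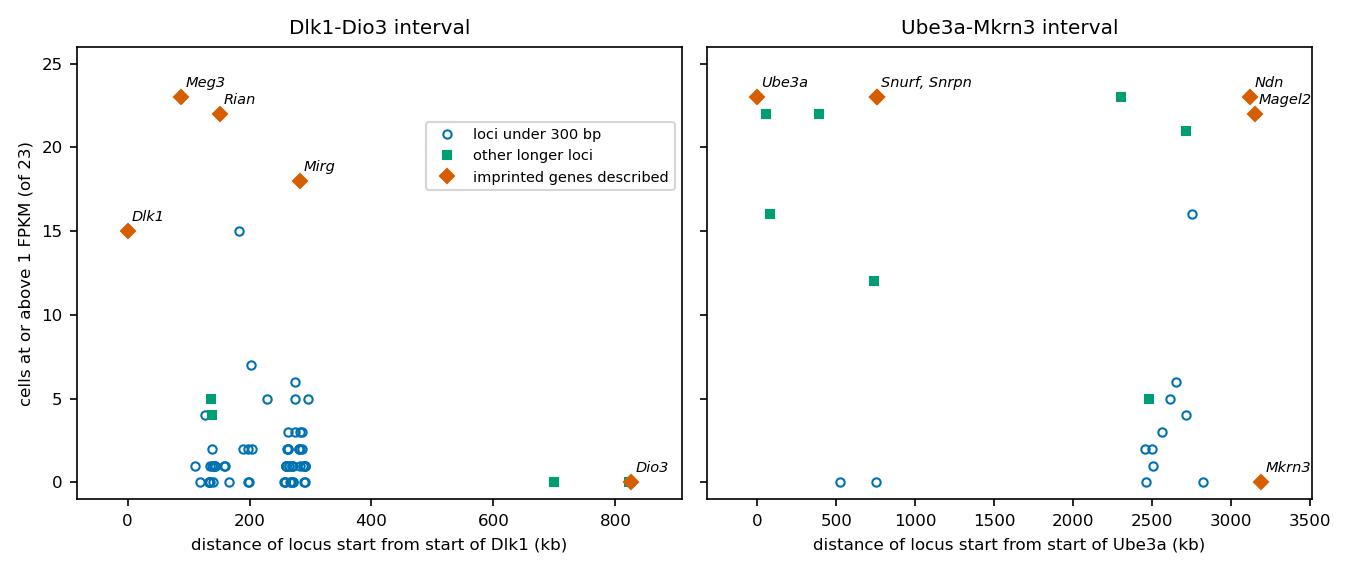
Number of the 23 cells at or above 1 FPKM (vertical axis) for every row in the 2 large imprinted intervals, by distance of the locus start from the first imprinted gene in kilobases (horizontal axis); open circles are loci shorter than 300 bp, squares other longer loci and diamonds the imprinted genes described. In the Dlk1-Dio3 interval 1 short locus reaches 15 cells and the others at most 7, while in the Ube3a-Mkrn3 interval 6 of the 7 longer loci reach 12 or more cells.

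The short loci held large but scattered FPKM values. FPKM divides by length, so a few fragments on a locus of under 300 bp give a high value. Mature microRNAs carry no poly(A) tail, so these rows are not measurements of mature microRNA. AF357425, a locus of 69 bp inside Rian, was at 1 FPKM in 15 cells with a median of 1179 FPKM, and was listed at 0 in the other 8; AF357355, also inside Rian, was present in 7. Mir487b was present in 6 cells, Mir3072, Mir539 and Mir882 in 5 each, Mir493 in 4 and Mir381 in 3. Cell 4 had the most rows of the interval, 14. Some cell reached 1 FPKM for 45 of the 64 short rows here, and for 30.2% of the 738 rows as short among all deposited rows.

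Every microRNA locus listed in the Ube3a-Mkrn3 interval is named Mir344, with or without a suffix. The 3 present in the most cells are shown with the seed (bases 2 to 8) in capitals. Mature sequences are from RefSeq (GRCm38.p6), where 65 of 67 microRNA rows of both intervals were matched.
mmu-miR-344g-5p: aGUCAGGCuccuggcaggagu
mmu-miR-344-5p: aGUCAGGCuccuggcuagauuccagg
mmu-miR-344c-5p: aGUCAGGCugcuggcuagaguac
All 3 share the seed GUCAGGC, and their hairpin loci reached 1 FPKM in 16 cells (Mir344g), 6 cells (Mir344) and 5 cells (Mir344c). Mir344g begins within A330076H08Rik by coordinates, so the 2 rows can share reads. From the Dlk1-Dio3 interval, 3 microRNAs with other seeds are shown for comparison.
mmu-miR-487b-5p: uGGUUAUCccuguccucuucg
mmu-miR-539-5p: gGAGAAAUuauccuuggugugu
mmu-miR-381-3p: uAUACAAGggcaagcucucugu

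Other imprinted genes, outside the list of 36, were read alongside. Of 45 such genes 43 were in the table. Of these, 17 (39.5%) reached 1 FPKM in 12 or more cells, against 27.7% of all genes and 75% of the list of 36. Some cell reached it for 35 (81.4%), against 63.6% and 91.7%. All 23 cells did so for 6 (14.0%), against 7.20% and 36.1%. Those 6 were Gnas, the stimulatory G protein subunit (median 1537 FPKM), the tetraspanin Cd81 (419 FPKM), Commd1 (96.6 FPKM), the signal peptide peptidase H13 (53.8 FPKM), Tssc4 (44.3 FPKM) and Begain, a postsynaptic protein (31.2 FPKM). Ipw, Bcl2l1 and Nap1l4 followed in 22 cells and Adam23 in 19. In the Kiss1-high cells 12 of 28 of them were lower and 0 higher, against 21.3% and 6.00% of all genes, with Gnas among the lower. The part of the lower number of genes per cell in that class was not tested here either. In the Cartpt-highest cells 7 of the 28 were higher, Gnas included, against 13.8% of all genes, and 2 were lower, against 7.85%. In the remaining cells 8 were higher, against 11.5%, and 1 was lower, against 5.44%. The Pomc-high cells had 3 higher (12.4% of all genes) and 2 lower (5.95%). The Sst- or Npy-high cells had 1 higher (10.1%) and 4 lower (9.51%).

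Some of the factors that keep imprints were present at low to moderate levels, and others in few cells or none. Of 16 genes for imprint maintenance and chromatin, 14 (87.5%) reached 1 FPKM in some cell, against 63.6% of all genes. In 12 or more cells 8 (50%) did so, against 27.7%. In all 23 cells 2 (12.5%) did so, against 7.20%, and 1 of the 16 was listed at 0 throughout. Trim28, the corepressor that zinc finger proteins bring to imprinted regions, was in all 23 cells (median 35.1 FPKM), as was Ctcf, the insulator protein (2.52 FPKM). Zfp57, the zinc finger protein that recognises methylated imprints, reached 1 FPKM in 18 cells (7.20 FPKM), the maintenance methyltransferase Dnmt1 in 18 (4.23 FPKM) and Zfp445, a further zinc finger protein of imprints, in 10. Atrx and Dnmt3a reached it in 20 cells, Ehmt2 in 19 and Tet3 in 7.

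Of a list of 12 genes drawn up around partners of Magel2 and Ndn, 10 were in the table. Some cell reached 1 FPKM for 8 (80%), against 63.6% of all genes. In 12 or more cells 7 (70%) did so, against 27.7%, and in all 23 cells 2 (20%), against 7.20%. Vps29 and Vps35 of the retromer, with which Magel2 works, were at medians of 215 FPKM (23 cells) and 83.5 FPKM (22 cells), and Vps26a reached 1 FPKM in 13 cells. Trim27, the ubiquitin ligase that Magel2 binds, did so in 16 cells, Usp7 in 18, Ube3b in 12 and Nsmce1, a subunit of the SMC5-SMC6 complex, in all 23 (44.8 FPKM). E2f1, a cell cycle factor bound by necdin, reached it in 1 cell, and Dlx2 was listed at 0 throughout. So was Snord116, which is a locus of 90 bp in the Ube3a-Mkrn3 interval and not a protein partner.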

How the data were processed

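Polyadenylated RNA of 23 hand-picked cells was amplified with SmartSeq2, per the labels' protocols. The submitters' processing notes name mm10, CASAVA 1.8, Cufflinks and TopHat; other versions, the annotation, filters and strand setting were not given in the sources used here. FPKM values, as the authors deposited them in 1 table, carry no read counts. Of its 23896 rows, 12 leftover spreadsheet summary rows, 286 identical rows and 27 names turned into dates were left out, and rows of 124 symbols were summed, which gave 23373 genes. Locus starts were taken to count from 0 and are printed from 1; strand and type are from GENCODE.

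Each sample is 1 cell, so no test and no p-value was computed. Presence means 1 FPKM or more, and shares of cells carry 95% Clopper-Pearson intervals (exact), for counting error alone. Differences are of mean log2(FPKM + 1), which understates changes of low genes, over genes at 1 FPKM in at least 3 cells. Relative depth came from the steps of low values (under 0.5 FPKM, loci of 500 bp or more). The comparison and depth calculations were run on simulated data to check the code. The simulated comparison used less spread between cells than these data have. It therefore does not show how often the size rule calls unchanged genes here. SmartSeq2 has no molecular identifiers, and doublets were not called in hand-picked cells.

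The members, lists, classes and alternatives were chosen with earlier results of these data known. Named are all 36 genes, up to 10 genes of each of 3 lists and up to 10 rows of each of 2 intervals by number of cells (ties by median), and, for marker lists, counts with up to 3 names; further markers were named after their values were seen. A gene that this rule selects is not reported here. Alternatives were thresholds of 0.1 and 10 FPKM, pseudocounts of 0.1 and 10, rescaling each cell to 1000000 over loci of 300 bp or longer, no filter, each title prefix alone, and leaving out cells. The tools were pandas 2.3.3, scipy 1.17.1, numpy 2.4.6 and matplotlib 3.10.9 under Python 3.11.15.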

Additional observations from a re-analysis of the deposited data

How the results depend on the processing

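The number of genes in at least 1 cell or in 12 or more cells stayed within 1.5 times under the alternatives run, while the number in every cell was 22 at 0.1 FPKM and 7 at 10 FPKM against 13. Counts by class moved with the processing; the share of all genes called the same way under the same setting stands in parentheses after each. With a pseudocount of 0.1 the Kiss1-high class had 14 genes lower (38%), the Cartpt-highest class 7 higher (25.5%), the Pomc-high class 2 lower (13.5%), the Sst- or Npy-high class 2 lower (20.9%), and the remaining cells 7 higher (20%). With 10 there were 3 lower in the Kiss1-high class (3.83%), 1 higher in the Cartpt-highest class (2.06%), 1 higher (1.23%) and 0 lower (0.711%) in the Pomc-high class, 0 lower in the Sst- or Npy-high class (1.32%), 1 higher (1.38%) and 0 lower (0.505%) in the remaining cells, and 1 higher in the cells with JCb5.2 (1.09%). After rescaling, 13 were lower in the Kiss1-high (27.4%), 1 in the Cartpt-highest (10.9%), 2 in the Pomc-high (7.58%) and 0 in the Sst- or Npy-high class (10.9%), and 5 were higher in the remaining cells (13.7%). Within JCb6, 0 genes were higher in the Kiss1-high class (9%), 8 higher (25%) and 2 lower (14.6%) in the Pomc-high class, and 6 higher (31.7%) and 1 lower (13.3%) in the remaining cells, where the Meg3 difference turned to 0.0953. Within JCb5.2, 1 was lower in the Cartpt-highest (10.8%), 2 in the Pomc-high (13.3%) and 2 in the Sst- or Npy-high class (13.2%), and 0 were higher in the remaining cells (12.7%). Without the Kiss1-high and Cartpt-highest cells 2 genes were higher with JCb5.2 (10.4%) and the Ppp1r9a difference turned to -0.355. Without cells 20 and 23, left out after seeing the data, 2 were higher in the Kiss1-high class (8.52%) and 0 lower in the Sst- or Npy-high class (9.9%).

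Leaving out 1 cell at a time gave 6 to 12 genes lower in the Kiss1-high class (16.8% to 25.3%), 2 to 7 higher (12.6% to 17.4%) and 0 to 1 lower (7.95% to 10.9%) in the Cartpt-highest class, 3 to 6 higher in the Pomc-high class (11.3% to 15.6%), 2 to 4 higher (8.98% to 14%) and 0 to 4 lower (9.71% to 12.4%) in the Sst- or Npy-high class, and 2 to 6 higher (10% to 14.1%) and 2 to 3 lower (5.58% to 6.9%) in the remaining cells. Leaving out cell 9 gave 4 higher and 4 lower in the Sst- or Npy-high class, and cell 2 gave 6 higher in the remaining cells. Leaving out each cell of a class in its own comparison was planned; leaving out cell 12, 17 or 23 elsewhere was added after seeing the data. The cause of these changes was not tested. No paired analysis was possible because each sample is 1 cell of 1 group and the replicate numbers only follow record order.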
